A study of Mus musculus with 15 samples.

Results

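The genes described here are 41 muscle contractile and actomyosin genes, taken by symbol from a count table that held 24034 genes after lines without a gene symbol were left out. They fall into 3 classes. The sarcomere class has 21 genes of striated muscle and of its calcium handling, the smooth muscle class has 12 genes, and the non-muscle actomyosin class has 8 genes that most cells use. RNA was sequenced from mouse embryonic stem (ES) cells that had been differentiated and sorted, in 15 libraries that make 5 groups of 3. Every line carried a LacZ reporter driven by elements of Eng, the gene of endoglin, a co-receptor of the TGF-beta family on endothelial and early blood-forming cells. In the first line the Eng promoter (P) was joined to the elements at -8, +7 and +9 kb, and the sorted cells were FLK1+ LacZ- and FLK1+ LacZ+. In the second line the promoter was joined to the -8 kb element alone, and the cells were HEI ENG+FDG-, HEI ENG+FDG+ and HEI ENG-FDG+, where FDG is a fluorogenic substrate that shows LacZ activity. The labels do not spell out HEI. The design text calls the cells targeted by the -8 kb element HE cells with TIE2 and c-KIT, and the FLK1+ cells mesoderm. Neither the sort gates, the culture days nor the number of clones per line is given in the sources used here, and nothing says that the replicates came from separate cultures, so that p-values measure only the spread between these samples.

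In striated muscle, actin and myosin filaments are arranged in sarcomeres. The troponins and tropomyosin let calcium control the pull of myosin on actin, titin and the Z-disc proteins hold the filaments in place, and Ryr2, Atp2a2 and Pln govern the release and return of calcium. Smooth muscle has no sarcomeres: its contraction is switched on by myosin light chain kinase (Mylk), and caldesmon, calponin and transgelin bind its actin filaments. Other cells use non-muscle myosins, vinculin and further tropomyosins for shape, adhesion and movement. Early cardiac and smooth muscle cells switch on many of the same genes, and serum response factor (SRF) binds a short element, the CArG box, near many of them.

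Windows from 250 bases before to 50 bases after the annotated start were matched in RefSeq (GRCm38.p6) for 37 of the 41 genes, 43 windows in all. Atp2a2, Actg2, Tagln and Myh11 had none. The CArG box stood in 7 of the 43 windows (16.3%), against 535 of 32851 windows of all genes (1.63%). The MCAT element CATTCCT, searched on both strands, stood in 8 of 43 windows (18.6%) against 5.36% of all windows, and the MEF2 site in 1 of 43 (2.3%) against 3.19%. The 8 genes with the MCAT element were Acta1, Acta2, Myh6, Myl3, Myl7, Tagln2, Tnnt2 and Tpm1. That of Myl7 lies in the lower-case flank of its CArG box below. A match is a description of these letters and not evidence of binding. Stretches with the matched element in capitals and 20 bases on each side are shown for the CArG box of 6 genes whose levels are given in the results, and for the MCAT element of Tnnt2. Each is written 5′ to 3′ on the strand of its gene.
Actc1, CArG box, chr2:114052893-114052942, minus strand: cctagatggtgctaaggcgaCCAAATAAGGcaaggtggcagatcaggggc
Myl9, CArG box, chr2:156775283-156775332, plus strand: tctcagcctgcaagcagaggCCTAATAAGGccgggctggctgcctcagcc
Acta1, CArG box, chr8:123894819-123894868, minus strand: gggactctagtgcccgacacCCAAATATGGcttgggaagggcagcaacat
Myl7, CArG box, chr11:5898814-5898863, minus strand: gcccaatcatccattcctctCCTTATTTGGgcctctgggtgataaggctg
Cnn2, CArG box, chr10:79988524-79988573, plus strand: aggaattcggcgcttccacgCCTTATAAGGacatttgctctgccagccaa
Vcl, CArG box, chr14:20929151-20929200, plus strand: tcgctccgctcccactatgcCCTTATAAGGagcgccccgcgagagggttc
Tnnt2, MCAT element, chr1:135836287-135836333, plus strand: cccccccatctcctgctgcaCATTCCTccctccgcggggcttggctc
The capitals of Actc1 end 38 bases before the annotated start, those of Acta1 64, Myl7 52, Cnn2 47, Myl9 152 and Vcl 218. The MCAT letters of Tnnt2 end 21 bases before it. None of these 7 stretches overlaps an exon of the GENCODE M21 annotation (GRCm38).

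Libraries held 9673396 to 16337785 counts. Levels are CPM (read counts scaled by library size) after normalization by trimmed mean of M values (TMM), and are listed for replicates 1, 2 and 3 in turn. The replicate 1 libraries stood apart from replicates 2 and 3 in every group: the biological coefficient of variation was 0.477 over all libraries, 0.182 once the replicate number within each line was a term of the model (the replicate block) and 0.076 in replicates 2 and 3 alone. The library HEI ENG-FDG+ replicate 1 had reads in 13954 genes, against 15440 to 17064 in the other 14 libraries. Where leaving it out cost a member its call, reversed a printed log2 difference or moved a called one by over 1.5 times, the value or adjusted p without it is given too.

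The members differed in level by orders of magnitude. Levels per kb were divided by the length of all annotated exons of a gene together, 7752 bases for Tnnt2. That length can exceed that of any single transcript, so the order of genes on this scale is approximate. Per kb of exon, Tpm4, a tropomyosin of the cytoskeleton, had the highest mean over all libraries, 396 CPM per kb, followed by Tagln2, a relative of transgelin found in most cells, at 249 CPM per kb. Among smooth muscle genes Acta2, smooth muscle alpha-actin, had 168 CPM per kb, Tpm1, a tropomyosin shared by striated and smooth muscle, 108, and Cald1, an actin-binding regulator, 75.3. The mean of Acta2 rested on HEI ENG-FDG+ replicate 1: without it Tpm1 was highest at 93.8 CPM per kb, then Cald1 at 75.0 and Acta2 at 62.9. In the sarcomere class Atp2a2, the SERCA2 calcium pump of the endoplasmic reticulum, was highest at 74.0 CPM per kb, and Pdlim5, an adaptor of Z-discs and actin fibres, reached 25.0 CPM per kb. Both are also made outside muscle. The genes that mark sarcomeres were low on the same scale: 10.9 CPM per kb for Actc1 (6.71 without HEI ENG-FDG+ replicate 1), 7.81 for Myl7, 1.49 for Tnnt2, 0.160 for Myh6 and 0.0426 for Ttn. Myl2 and Myl3, the ventricular myosin light chains, had 5 and 11 reads in all libraries together, none of them in the 9 HEI libraries, and with Actg2 (184 reads, 103 of them in HEI ENG-FDG+ replicate 1) they were too low to test. The other 38 members were tested, 19 of the sarcomere class, 11 of the smooth muscle class and all 8 of the non-muscle class. Of these, 30 passed the threshold in at least 1 comparison in the fit without or with the replicate block, and 8 passed in none (Tnnt1, Tnni1, Ttn, Pln, Myh11, Cnn3, Myh10 and Pdlim7).

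**Figure D1:**
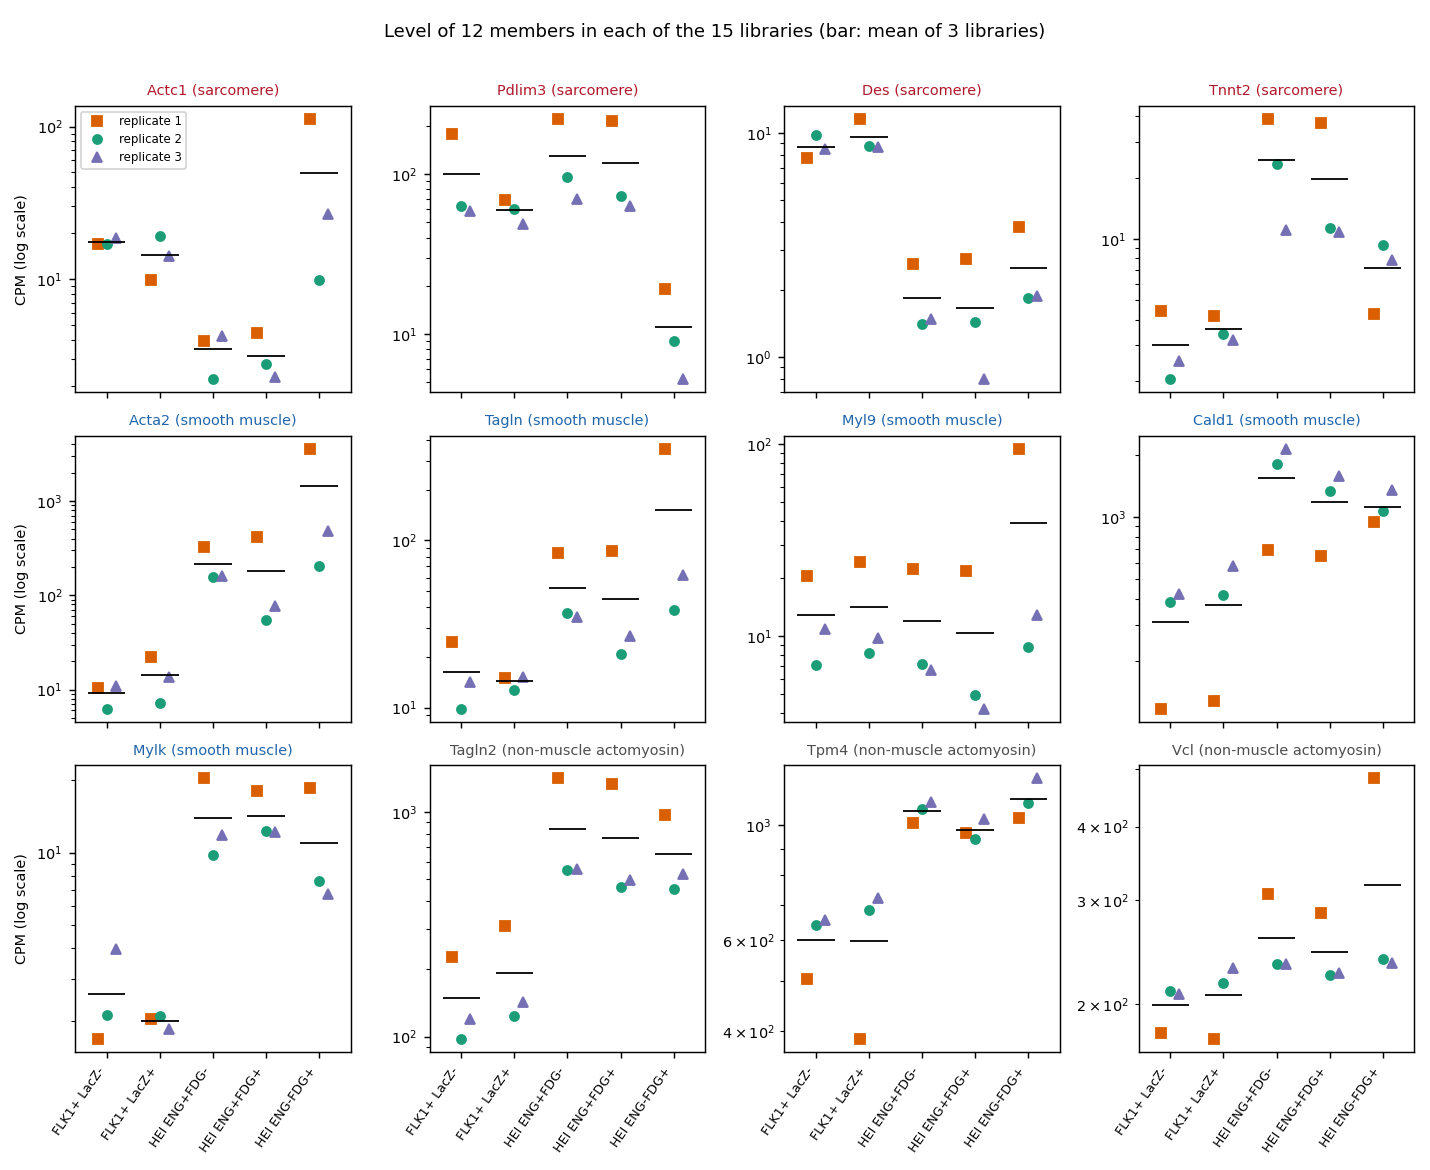
CPM on a log scale of 12 members (4 sarcomere, 5 smooth muscle and 3 non-muscle genes) in the 15 libraries, by sorted group; squares, circles and triangles are replicates 1, 2 and 3, and bars are means of 3 libraries. Acta2 and Tagln were higher in HEI than in FLK1+ libraries, Des was lower, and Pdlim3 was lowest in the HEI ENG-FDG+ libraries (5.20 to 19.0 CPM).

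The first question is how the contractile genes differed between the FLK1+ and the HEI cells. The mean of the 3 HEI groups was set against the mean of the 2 FLK1+ groups. Stage and reporter line changed together, so they cannot be told apart. In bulk samples, fewer cells of a type and less RNA per cell cannot be told apart either. The classes went different ways: 8 sarcomere genes were lower in HEI and 3 were higher, while 4 smooth muscle and 2 non-muscle genes were higher and none of those classes was lower. Without HEI ENG-FDG+ replicate 1 the same 4 smooth muscle genes were higher and 2, Cnn1 and Tpm2, were lower (log2 differences -1.37 and -0.66, edgeR adjusted p = 0.0317 and 0.046), and the sarcomere genes Actc1 and Acta1 joined the lower genes (-1.43 and -2.18, 0.00143 and 0.0436). With all 15 libraries 17 of 38 members passed an adjusted p of 0.05 (edgeR quasi-likelihood test, Benjamini-Hochberg), 9 higher and 8 lower. Of all 13662 genes tested, 37.3% passed, 17% higher and 20.3% lower. The median log2 difference was -0.95 over the sarcomere class, 1.05 over the smooth muscle class and 0.41 over the non-muscle class, against -0.11 over all genes. Without that library the medians were -1.43, 0.62 and 0.25, against -0.15.

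The atrial and cardiac light chains fell most. Myl7, the atrial regulatory light chain, had 18.0, 12.3 and 6.12 CPM in FLK1+ LacZ- cells and 8.30, 12 and 3.69 in FLK1+ LacZ+ cells. In HEI cells it had 0.121, 0.176 and 0.0866 CPM (ENG+FDG-), 0, 0 and 0.0994 (ENG+FDG+), and 8.15, 0.0962 and 0 (ENG-FDG+). All HEI libraries but ENG-FDG+ replicate 1 lay far below all FLK1+ libraries. Its log2 difference was -5.33 ± 0.95 (SE; adjusted p = 0.000657, edgeR), and -7.19 without ENG-FDG+ replicate 1 (1.62e-06).

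Myl4, the light chain of atrial and embryonic muscle, had 13.7, 4.98 and 6.67 CPM in FLK1+ LacZ- cells and 6.39, 9.40 and 9.03 CPM in FLK1+ LacZ+ cells. It had 0.173 to 0.455 CPM in the 6 ENG+ HEI libraries, and 6.53, 0.385 and 1.02 CPM in ENG-FDG+ cells. Again 1 HEI library, ENG-FDG+ replicate 1, reached into the FLK1+ range. The log2 difference was -3.65 ± 0.52 (edgeR adjusted p = 0.000127), and -4.27 without that library (2.81e-06).

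Des, the desmin of intermediate filaments, had 7.71, 9.78 and 8.43 CPM in FLK1+ LacZ- cells and 11.6, 8.70 and 8.62 CPM in FLK1+ LacZ+ cells. It had 2.61, 1.41 and 1.47 CPM in HEI ENG+FDG-, 2.73, 1.43 and 0.795 in ENG+FDG+ and 3.82, 1.83 and 1.87 in ENG-FDG+ cells. The HEI and FLK1+ libraries did not overlap, and the log2 difference was -2.20 ± 0.29 (edgeR adjusted p = 6.51e-05).

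Actn2, the alpha-actinin of Z-discs, had 2.50 to 4.47 CPM in the 6 FLK1+ libraries, 0.173 to 0.695 CPM in the 6 ENG+ HEI libraries and 2.21, 0.192 and 0.256 CPM in ENG-FDG+ cells. ENG-FDG+ replicate 1 again stood nearest to the FLK1+ libraries. The gene fell by 2.76 ± 0.46 on the log2 scale (edgeR adjusted p = 0.000444), and its log2 difference was -3.39 without that library (2.17e-06). The calcium sensor Tnnc1, troponin C of heart and slow muscle, had 14.4, 4.71 and 5.19 CPM in FLK1+ LacZ- cells, 3.45, 3.20 and 8.01 in FLK1+ LacZ+ cells, and 0.381 to 2 CPM in the 9 HEI libraries. These did not overlap, and the gene fell by 2.78 ± 0.45 on the log2 scale (edgeR adjusted p = 0.000335).

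Ryr2, the channel that releases calcium in heart muscle, had 4.91, 5.54 and 9.92 CPM in FLK1+ LacZ- cells and 4.66, 15.5 and 17.3 CPM in FLK1+ LacZ+ cells. It had 0.971, 2.20 and 1.30 CPM in ENG+FDG-, 0.911, 1.52 and 1.19 in ENG+FDG+, and 3.73, 4.23 and 4.17 in ENG-FDG+ HEI cells. All HEI libraries lay below all FLK1+ libraries, with ENG-FDG+ cells nearest to them, and the log2 difference was -2.24 ± 0.32 (edgeR adjusted p = 0.000108). The remaining genes that fell were Myh6 and Tnni3.

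Myh6, the alpha myosin heavy chain of the heart, had 1.47, 0.923 and 1.76 CPM in FLK1+ LacZ- cells, 7.92, 0.5 and 0.924 CPM in FLK1+ LacZ+ cells, and 0 to 0.52 CPM in the 9 HEI libraries. It fell by 2.78 ± 0.65 on the log2 scale (edgeR adjusted p = 0.0045). That size rested on FLK1+ LacZ+ replicate 1, the highest library: without it the log2 difference was -1.72 (edgeR adjusted p = 0.026), and the gene was too low to test in replicates 2 and 3 alone.

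Tnni3, the inhibitory troponin of the heart, had 5.19, 0.646 and 1.85 CPM in FLK1+ LacZ- and 6.90, 2.4 and 1.23 CPM in FLK1+ LacZ+ cells, 0.0866 to 0.52 CPM in the 6 ENG+ HEI libraries and 4.58, 0.289 and 0.341 CPM in ENG-FDG+ cells. It fell by 2.25 ± 0.68 on the log2 scale (edgeR adjusted p = 0.019), and its log2 difference was -3.02 without ENG-FDG+ replicate 1 (0.000933). Over 15 fits that left out each library in turn, 17 to 21 members passed, and Tnni3 alone of the 17 lost its call. That happened without FLK1+ LacZ- replicate 1 (log2 difference -1.73, edgeR adjusted p = 0.0735) and without FLK1+ LacZ+ replicate 1 (-1.77, 0.0647).

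Against this run of lower genes, Tnnt2, Myh7 and Pdlim5 were higher in HEI cells. Tnnt2, the cardiac troponin T, and Myh7, the slow and beta-cardiac heavy chain, are named for this direction, after their values were seen. The MCAT element stood in windows of genes that were higher (Tnnt2, Acta2 and Tagln2) and of genes that were lower (Myl7 and Myh6). Tnnt2 had 2.03 to 4.42 CPM in the 6 FLK1+ libraries, against 38.9, 23.4 and 11 in ENG+FDG-, 37.3, 11.2 and 10.8 in ENG+FDG+ and 4.24, 9.33 and 7.84 in ENG-FDG+ HEI cells. The library ENG-FDG+ replicate 1 lay within the FLK1+ range, and the log2 difference was 2.20 ± 0.40 (edgeR adjusted p = 0.000708).

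Myh7 was low throughout, with 0.103 to 0.830 CPM in FLK1+ libraries and 0.481 to 3.90 CPM in HEI libraries, ranges that overlapped. It rose by 2.54 ± 0.64 on the log2 scale (edgeR adjusted p = 0.00678). Pdlim5 was abundant, with 118, 185 and 145 CPM in FLK1+ LacZ- and 118, 156 and 139 CPM in FLK1+ LacZ+ cells. It had 288, 316 and 305 CPM in ENG+FDG-, 236, 321 and 308 in ENG+FDG+ and 227, 232 and 231 in ENG-FDG+ HEI cells. No HEI library reached down to the FLK1+ range, and the log2 difference was 0.92 ± 0.14 (edgeR adjusted p = 0.000188).

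Among smooth muscle genes Acta2 rose most. It had 10.4, 6.18 and 10.8 CPM in FLK1+ LacZ- and 22.4, 7.20 and 13.7 CPM in FLK1+ LacZ+ cells. In HEI cells it had 324, 158 and 159.9 CPM (ENG+FDG-), 410.4, 54.9 and 76.3 CPM (ENG+FDG+), and 3602, 202 and 477 CPM (ENG-FDG+). Every HEI library exceeded every FLK1+ library, and the log2 difference was 5.05 ± 0.77 (edgeR adjusted p = 0.000207), or 4.38 without ENG-FDG+ replicate 1 (6.40e-05). The actins Acta2, Actc1, Acta1 and Actg2 are near-identical in coding sequence, and how reads shared between them were counted is not given in the sources used here, so their values are uncertain.

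Tagln, transgelin, an early marker of smooth muscle, had 24.8, 9.78 and 14.2 CPM in FLK1+ LacZ- and 15.1, 12.8 and 15.2 CPM in FLK1+ LacZ+ cells. It had 84.6, 37.0 and 35 CPM in ENG+FDG-, 87.0, 21 and 26.7 in ENG+FDG+ and 355, 38.5 and 62.3 in ENG-FDG+ HEI cells. Only ENG+FDG+ replicate 2 came below the highest FLK1+ library, and the log2 difference was 2.21 ± 0.53 (edgeR adjusted p = 0.00528).

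Mylk had 1.68, 2.12 and 3.99 CPM in FLK1+ LacZ- and 2.04, 2.10 and 1.85 CPM in FLK1+ LacZ+ cells, against 20.3, 9.78 and 11.8 in ENG+FDG-, 18.1, 12.3 and 12.2 in ENG+FDG+ and 18.6, 7.60 and 6.73 in ENG-FDG+ HEI cells. The ranges did not overlap, and the log2 difference was 2.51 ± 0.33 (edgeR adjusted p = 5.82e-05). Cald1, caldesmon, a brake on the actin-myosin interaction with a form in smooth muscle and a form in other cells, had 117, 389 and 421 CPM in FLK1+ LacZ- and 128, 417 and 579.8 CPM in FLK1+ LacZ+ cells. It had 692, 1796 and 2138 CPM in ENG+FDG-, 647, 1339 and 1571 in ENG+FDG+ and 948, 1063 and 1352 in ENG-FDG+ HEI cells, every one of them above all FLK1+ libraries. The log2 difference was 1.90 ± 0.42 (edgeR adjusted p = 0.00285).

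The other 7 tested smooth muscle genes did not pass without the block, among them genes that are most restricted to mature smooth muscle. Myh11, its myosin heavy chain, had 0.0927 to 1.95 CPM in FLK1+ and 0.182 to 3.14 CPM in HEI libraries, with a log2 difference of 1.05 ± 0.62 (edgeR adjusted p = 0.211). Cnn1, calponin 1, had 8.95 to 19.0 CPM in FLK1+ libraries, 1.24 to 11 in the 6 ENG+ HEI libraries and 68.2, 3.56 and 6.30 in ENG-FDG+ cells, with a log2 difference of -0.59 ± 0.63 (edgeR adjusted p = 0.504). Smtn, smoothelin, had 55.7, 23.7 and 28.6 CPM in FLK1+ LacZ- and 79.8, 30.0 and 29.3 CPM in FLK1+ LacZ+ cells, against 155, 38.7 and 43.3 in ENG+FDG-, 141, 47.8 and 50.9 in ENG+FDG+ and 179, 43.1 and 52.7 in ENG-FDG+ HEI cells. Replicate 1 was highest in all 5 groups, and the log2 difference was 1.03 ± 0.47 (edgeR adjusted p = 0.11). Tpm1 had 483 to 806 CPM in FLK1+ and 404 to 2028 CPM in HEI libraries, and its log2 difference was 0.13 ± 0.31 (edgeR adjusted p = 0.787). Without ENG-FDG+ replicate 1 its sign turned (-0.16, edgeR adjusted p = 0.579).

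In the non-muscle class Tagln2 and Tpm4 rose. Tagln2 had 227, 97.6 and 119.7 CPM in FLK1+ LacZ- and 311, 123 and 142 CPM in FLK1+ LacZ+ cells. It had 1407, 553 and 558 CPM in ENG+FDG-, 1332, 464 and 497 in ENG+FDG+ and 970.2, 455 and 531 in ENG-FDG+ HEI cells. The lowest HEI library lay above the highest FLK1+ library, and the log2 difference was 2.15 ± 0.39 (edgeR adjusted p = 0.000807).

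Tpm4 had 506, 642 and 657 CPM in FLK1+ LacZ- and 387, 686 and 722 CPM in FLK1+ LacZ+ cells, and 942 to 1231 CPM in the 9 HEI libraries, again without overlap. Its log2 difference was 0.81 ± 0.16 (edgeR adjusted p = 0.00167). Myh9, the heavy chain of non-muscle myosin IIA, had 336, 218 and 262 CPM in FLK1+ LacZ-, 346, 248 and 286 in FLK1+ LacZ+, 514, 289 and 326 in ENG+FDG-, 516, 266 and 291 in ENG+FDG+ and 646, 235 and 262 in ENG-FDG+ cells, with replicate 1 highest in every group. Myh10, that of myosin IIB, had 316 to 709 CPM in FLK1+ and 519 to 880.2 CPM in HEI libraries. Neither passed without the block (log2 differences 0.39 ± 0.26 and 0.11 ± 0.20, edgeR adjusted p = 0.269 and 0.704).

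With the replicate block 25 members passed, 13 higher and 12 lower, as did 67% of all genes, 29.5% higher and 37.5% lower. The block was set within each line, so it took the spread between replicate numbers out of the error of this comparison between lines. Its SE and adjusted p do not measure that spread, so the calls it adds are less certain than these values show. All 17 members kept their direction and call. The block added Smtn (0.89 ± 0.09), Cnn2 (0.79 ± 0.11), Vcl (0.40 ± 0.09) and Myh9 (0.33 ± 0.08) among the higher genes, and Actc1 (-1.17 ± 0.29), Cnn1 (-1.14 ± 0.27), Pdlim3 (-0.60 ± 0.13) and Atp2a2 (-0.39 ± 0.06) among the lower, all log2 differences with edgeR adjusted p from 2.42e-06 to 0.00374. Cnn2, calponin 2, had 122, 69.6 and 82.5 CPM in FLK1+ LacZ-, 117, 80.3 and 95.9 in FLK1+ LacZ+, 278, 122 and 118 in ENG+FDG-, 276, 88.6 and 97.3 in ENG+FDG+ and 495, 99.8 and 137 in ENG-FDG+ cells. Vcl, vinculin, a link between actin and adhesions, had 179, 210.2 and 208 CPM in FLK1+ LacZ-, 174, 217 and 229.8 in FLK1+ LacZ+, 307, 234 and 234 in ENG+FDG-, 285, 224 and 226 in ENG+FDG+ and 483, 238 and 235 in ENG-FDG+ cells. In both genes replicate 1 was the highest HEI library of its group, and the FLK1+ and HEI ranges overlapped. Atp2a2 had 358, 605 and 588 CPM in FLK1+ LacZ-, 387, 600.0 and 622 in FLK1+ LacZ+, 339, 431 and 399 in ENG+FDG-, 291, 394 and 393 in ENG+FDG+ and 327, 502 and 514 in ENG-FDG+ cells, so that replicate 1 was lowest in every group. All 25 calls held when each of the 15 libraries was left out in turn with the block kept, in fits that leave out the same spread. In replicates 2 and 3 alone 28 members passed, 15 higher and 13 lower, beside 73.7% of all genes (36.8% higher and 36.9% lower).

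**Figure D2:**
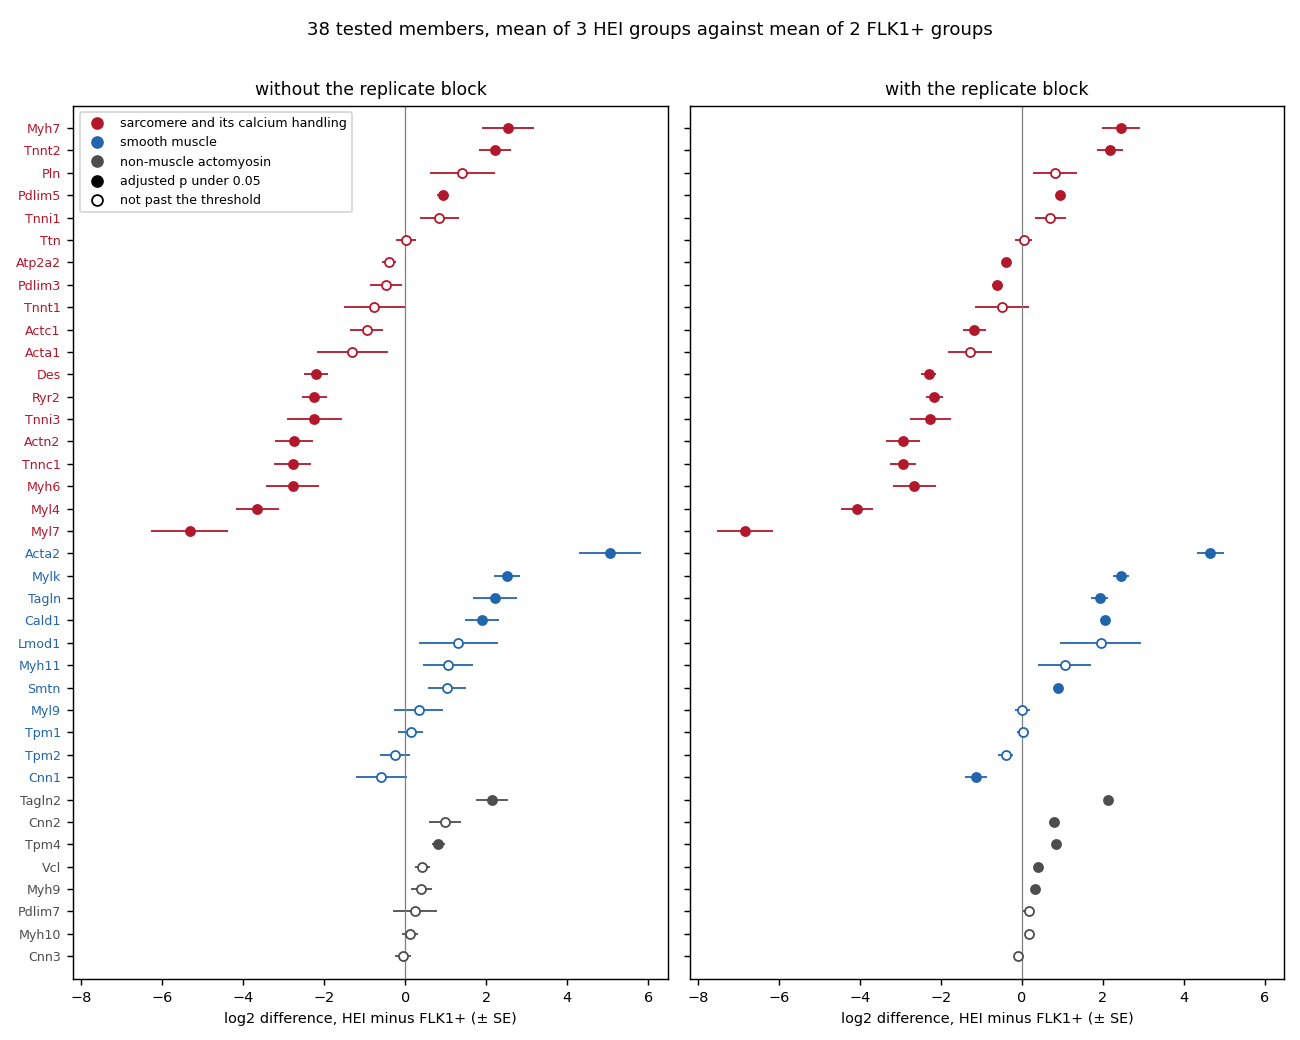
Log2 differences (± SE) of the 38 tested members between HEI and FLK1+ cells, without (left) and with (right) the replicate block, ordered within class; filled points passed an adjusted p of 0.05. Sarcomere genes run from Myl7 (-5.33 without the block) to Myh7 (2.54), and smooth muscle genes from Cnn1 (-0.59) to Acta2 (5.05).

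Partners of these genes were read from a list of 19 cytoskeletal and signalling genes. Without the block 1 rose, Tln1 (talin, which ties integrins to actin, log2 difference 1.54 ± 0.34, edgeR adjusted p = 0.0033), and 1 fell, Actn1 (an alpha-actinin of stress fibres, -1.03 ± 0.24, 0.00399). With the block 13 rose and 3 fell. Of the 16 muscle transcription regulators 11 were tested, of which 4 rose and 2 fell. Mef2c, a factor of heart, muscle and endothelium, had 2.10 to 9.07 CPM in FLK1+ libraries and 33.3 to 110.0 CPM in HEI libraries (log2 difference 3.86 ± 0.29, edgeR adjusted p = 8.24e-07). Hand2, a factor of the developing heart, rose by 2.03 ± 0.33 on the log2 scale (edgeR adjusted p = 0.000328).

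Myocd, the SRF cofactor of heart and smooth muscle, had 6.02 to 10.9 CPM in FLK1+ libraries, 0.476 to 1.43 CPM in the 6 ENG+ HEI libraries, and 10.4, 1.06 and 0.682 CPM in ENG-FDG+ cells. It fell by 2.38 ± 0.51 on the log2 scale (edgeR adjusted p = 0.00259). Tbx5, a factor of the heart field, was at 0.741 to 1.64 CPM in FLK1+ libraries and at 0 in 7 of 9 HEI libraries, and it too was lower (edgeR adjusted p = 3.50e-05). Myod1 and Myog, the factors that start skeletal muscle, were at or below 0.421 CPM in FLK1+ libraries and at 0 in all 9 HEI libraries. The 10 cardiomyocyte markers outside the 41 genes summed to 3.90 to 5.81 CPM in FLK1+ and 3.08 to 19.3 CPM in HEI libraries, and of the 5 tested Ldb3 and Myom1 rose and Tbx5 fell (list median log2 difference 1.30). Of the defining ones Csrp3 had 1 read in all libraries and Smpx 0. The 6 skeletal muscle markers summed to 16.9 to 36.0 CPM in FLK1+ and 1.15 to 9.67 CPM in HEI libraries. The 10 mesenchyme and mural markers summed to 198 to 331 CPM in FLK1+ libraries and 53.7 to 1152 CPM in HEI libraries, with 3 of 9 tested higher in HEI and 4 lower. The 6 endothelial markers summed to 21.5 to 223.9 CPM in FLK1+ and 1303 to 4209 CPM in HEI libraries, and all 6 were higher in HEI. Their part in the members' differences was not tested.

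The next question is how HEI cells with and without surface ENG differed. Both comparisons use the ENG-FDG+ libraries, so they are not independent and their values are given side by side. ENG-FDG+ cells had more of the actins Actc1 and Acta2, of the light chain Myl9 and of other smooth muscle genes than either ENG+ fraction, and less Pdlim3. Without the replicate block 1 of 38 members passed in each comparison, Actc1 in both. The shares of all genes were 0.278% (ENG+FDG+ against ENG-FDG+) and 0.351% (ENG-FDG+ against ENG+FDG-). With the block 13 and 12 members passed, beside 12.5% and 12.9% of all genes. In ENG+FDG+ against ENG-FDG+ 12 members were lower and 1 higher (6.53% and 5.95% of all genes), and in ENG-FDG+ against ENG+FDG- 10 were higher and 2 lower (6.21% and 6.65% of all genes). The smooth muscle class held 7 and 6 of these calls among 11 tested genes, and no non-muscle gene passed in either comparison. With the block the smooth muscle class had a median log2 difference of -1.16 and 1.12, against -0.04 and 0.03 over all genes. These values rested on ENG-FDG+ replicate 1: without it the medians were -0.57 and 0.53, against -0.02 and 0.001, and in replicates 2 and 3 alone -0.49 and 0.32, against 0.01 and 0.003.

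Actc1, cardiac alpha-actin, which is also made early in smooth muscle and embryonic skeletal muscle, was low in ENG+ cells, with 3.94, 2.20 and 4.24 CPM in ENG+FDG- and 4.42, 2.76 and 2.29 CPM in ENG+FDG+ libraries. It had 112, 9.91 and 26.6 CPM in ENG-FDG+ libraries, against 9.84 to 19.1 CPM in FLK1+ libraries. All 3 ENG-FDG+ libraries exceeded all 6 ENG+ HEI libraries. The log2 difference without the block was -3.96 ± 0.73 for ENG+FDG+ against ENG-FDG+ (edgeR adjusted p = 0.0442) and 3.84 ± 0.72 for ENG-FDG+ against ENG+FDG- (0.0453). With the block the values were -3.55 ± 0.51 (edgeR adjusted p = 0.00148) and 3.39 ± 0.50 (0.00164). Without the block the first call was lost when any of the 6 libraries but ENG-FDG+ replicate 2 was left out (edgeR adjusted p = 0.0544 to 0.24), and the second likewise (0.0608 to 0.2). With the block both held in all 6 such fits, at -2.60 and 2.49 without ENG-FDG+ replicate 1. Actc1 is outside the naming rule and was singled out after its values were seen.

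Pdlim3, an adaptor of Z-discs and stress fibres that binds alpha-actinin, went the other way. The gene (chr8:45885461-45919548, GRCm38) had 221, 96.0 and 70.0 CPM in ENG+FDG- and 214, 73.2 and 63.4 CPM in ENG+FDG+ cells, but 19.0, 9.04 and 5.20 CPM in ENG-FDG+ cells. FLK1+ LacZ- cells had 179, 63.2 and 58.3 CPM and FLK1+ LacZ+ cells 69.1, 60.5 and 48.9 CPM, so that the 3 ENG-FDG+ libraries were the lowest of all 15. The log2 difference with the block was 3.37 ± 0.23 for ENG+FDG+ against ENG-FDG+ (edgeR adjusted p = 3.49e-05) and -3.56 ± 0.23 for ENG-FDG+ against ENG+FDG- (2.33e-05). Both calls held whichever of the 6 libraries was left out, with sizes of 3.29 to 3.50 and -3.68 to -3.48. Without the block the values were close to these, 3.40 ± 0.69 and -3.54 ± 0.69, and missed the threshold (edgeR adjusted p = 0.0618 and 0.0566).

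In the smooth muscle class 1 library, ENG-FDG+ replicate 1, stood far above the others. For Acta2 (chr19:34241090-34255590, GRCm38) the ENG-FDG+ libraries had 3602, 202 and 477 CPM, against 324, 158 and 159.9 CPM in ENG+FDG- and 410.4, 54.9 and 76.3 CPM in ENG+FDG+ libraries. Each ENG-FDG+ library exceeded the library of the same number in both ENG+ fractions, but the groups overlapped across numbers. With the block the log2 difference was -2.66 ± 0.42 for ENG+FDG+ against ENG-FDG+ (edgeR adjusted p = 0.00234) and 1.77 ± 0.42 for ENG-FDG+ against ENG+FDG- (0.0194). Without ENG-FDG+ replicate 1 they were -1.97 (edgeR adjusted p = 0.0416) and 1.21 (0.134).

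Myl9, the regulatory light chain of smooth muscle, had 94.8, 8.75 and 12.9 CPM in ENG-FDG+, 22.3, 7.14 and 6.67 in ENG+FDG- and 22.0, 4.95 and 4.17 in ENG+FDG+ libraries, and FLK1+ libraries had 20.6, 7.11 and 10.8 (LacZ-) and 24.5, 8.20 and 9.75 CPM (LacZ+). Replicate 1 was highest in every group, and within each number ENG-FDG+ was the highest HEI library. With the block the log2 differences were -1.61 ± 0.29 (edgeR adjusted p = 0.00469) and 1.20 ± 0.28 (0.0183). Without ENG-FDG+ replicate 1 they were -1.09 (0.00543) and 0.72 (0.0382), the adjusted p again from edgeR.

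Lmod1, leiomodin 1, which nucleates actin in smooth muscle, had 18.8, 0.481 and 1.45 CPM in ENG-FDG+ libraries and 0 to 0.927 CPM in the other 12. It passed in both comparisons with the block (log2 differences -3.93 ± 0.97 and 3.56 ± 0.99, edgeR adjusted p = 0.0252 and 0.0412), but not without ENG-FDG+ replicate 1 (-2.12 and 2.04, 0.133 and 0.142). Cnn1 had 68.2, 3.56 and 6.30 CPM in ENG-FDG+, 7.34, 3 and 3.64 in ENG+FDG- and 11, 1.24 and 1.79 in ENG+FDG+ cells. It passed with the block (-2.12 ± 0.45 and 1.57 ± 0.46, edgeR adjusted p = 0.0121 and 0.0453) and not without that library (-1.14 and 0.85, 0.0594 and 0.134).

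Tagln passed with the block in both comparisons (log2 differences -1.45 ± 0.30 and 1.02 ± 0.30, edgeR adjusted p = 0.0108 and 0.0468). Without ENG-FDG+ replicate 1 it passed in the first (-0.92, 0.0339) and missed in the second (0.53, 0.188). Tpm2, a tropomyosin of slow and smooth muscle, had 183, 32.1 and 38.5 CPM in ENG-FDG+ libraries and 21.1 to 49.3 CPM in the 6 ENG+ libraries, and Tpm1 had 2028, 492 and 633 CPM against 404 to 815 CPM. Tpm2 passed with the block in both comparisons (-1.15 ± 0.29 and 1.12 ± 0.30, edgeR adjusted p = 0.026 and 0.0295) and Tpm1 in the first only (-0.76 ± 0.22, 0.0439). Neither passed without ENG-FDG+ replicate 1. Tpm2 then had log2 differences of -0.57 and 0.56 (edgeR adjusted p = 0.0569 and 0.0597), and Tpm1 -0.35 in the first comparison (0.159).

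**Figure D3:**
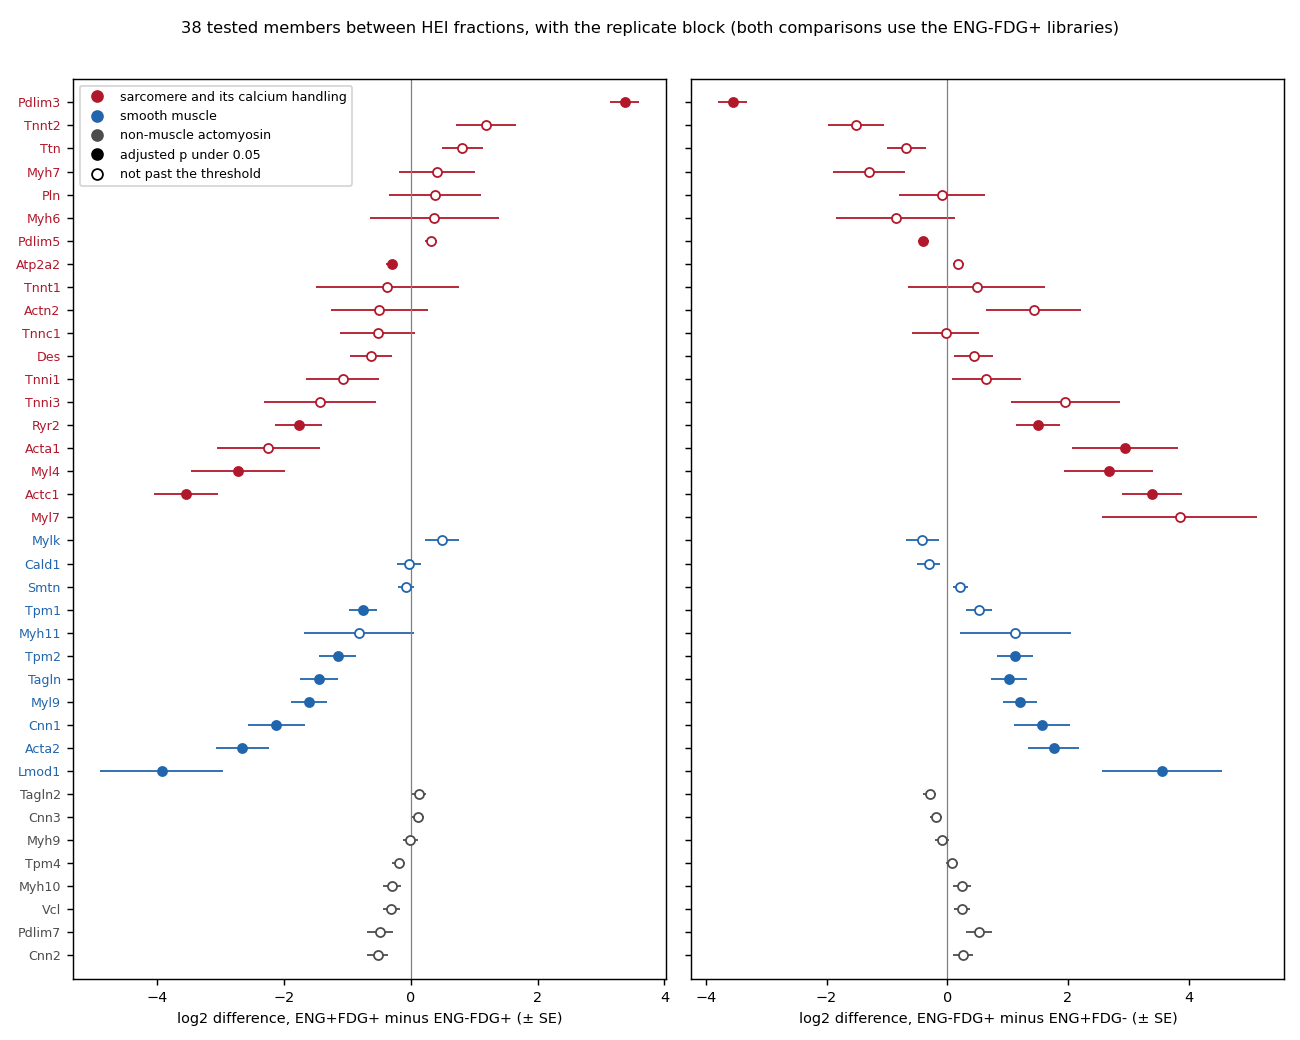
Log2 differences (± SE, with the replicate block) of the 38 tested members for HEI ENG+FDG+ minus ENG-FDG+ (left) and ENG-FDG+ minus ENG+FDG- (right), with filled points past an adjusted p of 0.05. The 7 filled smooth muscle genes on the left lie between -3.93 (Lmod1) and -0.76 (Tpm1), Pdlim3 stands alone at 3.37, and Myl7, with 1 read in the ENG+FDG+ libraries, is not drawn on the left.

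Among sarcomere genes Ryr2 had 3.73, 4.23 and 4.17 CPM in ENG-FDG+ cells and 0.911 to 2.20 CPM in the 6 ENG+ HEI libraries, with no overlap. It passed with the block in both comparisons (log2 differences -1.77 ± 0.37 and 1.502 ± 0.36, edgeR adjusted p = 0.0111 and 0.0203). Without ENG-FDG+ replicate 1 it passed as well (-1.58 and 1.29, 0.0149 and 0.0338). The first call was lost without ENG+FDG+ replicate 2 or 3 (highest edgeR adjusted p = 0.0645), and the second without ENG+FDG- replicate 1 or 3 or ENG-FDG+ replicate 3 (highest 0.103).

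Myl4 passed with the block in both comparisons (-2.73 ± 0.74 and 2.67 ± 0.74, edgeR adjusted p = 0.0345 and 0.0358), but not without ENG-FDG+ replicate 1 (-1.42 and 1.39, 0.286 and 0.293). Acta1, skeletal alpha-actin, passed in ENG-FDG+ against ENG+FDG- only (2.94 ± 0.87, edgeR adjusted p = 0.0478), on 9.16, 0.385 and 0.596 against 0.485, 0.264 and 0.0866 CPM. It missed the threshold without ENG-FDG+ replicate 1 (1.56, edgeR adjusted p = 0.271). The call of Myl7 in ENG+FDG+ against ENG-FDG+ rested on 1 read in the ENG+FDG+ libraries and 96 of 97 reads of the ENG-FDG+ libraries in replicate 1, so no fold is given, and it was lost without that library (edgeR adjusted p = 0.916) or without ENG+FDG+ replicate 1 or 2. Smaller differences passed for Atp2a2 in the first comparison (-0.30 ± 0.09, edgeR adjusted p = 0.0484) and for Pdlim5 in the second (-0.40 ± 0.10, 0.0237).

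Of the calls with the block, those of Actc1, Pdlim3, Acta2 and Myl9 in ENG+FDG+ against ENG-FDG+ (4 of 13) and those of Actc1 and Pdlim3 in ENG-FDG+ against ENG+FDG- (2 of 12) held in all 6 fits that left out 1 library of the comparison. In the first comparison the calls of Cnn1, Lmod1, Tpm2, Tpm1, Tagln and Myl4 were each lost without any single ENG+FDG+ library (highest edgeR adjusted p = 0.0673, 0.185, 0.146, 0.187, 0.0635 and 0.294), and those of Myl4 and Tpm1 also without ENG-FDG+ replicate 3. In the second the calls of Tagln, Cnn1, Lmod1, Tpm2, Myl4, Myl9 and Acta1 were each lost without ENG+FDG- replicate 1 or 3 (highest edgeR adjusted p over all such fits = 0.266, 0.237, 0.311, 0.182, 0.352, 0.131 and 0.406), and that of Acta2 without ENG+FDG- replicate 3 or ENG-FDG+ replicate 3. Those of Tagln, Cnn1 and Myl4 were lost without ENG-FDG+ replicate 3 too, and that of Acta1 without ENG-FDG+ replicate 1 or 2. The calls of Atp2a2 and Pdlim5 held in 1 of 6 fits each, the fit without ENG-FDG+ replicate 1 (edgeR adjusted p = 0.00479 and 0.0025). Without that library 9 and 8 members passed, beside 18.8% and 18% of all genes, and the balance of the second comparison turned. In ENG+FDG+ against ENG-FDG+ 3 were higher and 6 lower. In ENG-FDG+ against ENG+FDG- 3 were higher (Actc1, Ryr2 and Myl9) and 5 lower (Tnnt2, Pdlim3, Pdlim5, Cald1 and Myh9). In replicates 2 and 3 alone 12 and 13 members passed, beside 29.3% and 27.1% of all genes, 3 higher and 9 lower in the first comparison and 5 higher and 8 lower in the second. Acta2, Tagln, Cnn1 and Myl9 still passed in the first but not in the second, where the smooth muscle class had 1 higher gene, Tpm2, and 2 lower, Mylk and Cald1. The non-muscle genes Cnn3 and Myh9 were lower in the second too (log2 differences -0.32 ± 0.09 and -0.34 ± 0.10, edgeR adjusted p = 0.00785 and 0.0203). Mylk was then higher in ENG+FDG+ than in ENG-FDG+ cells (log2 difference 0.84 ± 0.23, edgeR adjusted p = 0.00852), and Tnnt2 (-1.04 ± 0.27), Myh7 (-2.11 ± 0.52) and Cald1 (-0.74 ± 0.20) were lower in ENG-FDG+ than in ENG+FDG- cells (edgeR adjusted p = 0.00967, 0.00486 and 0.0417).

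**Figure D4:**
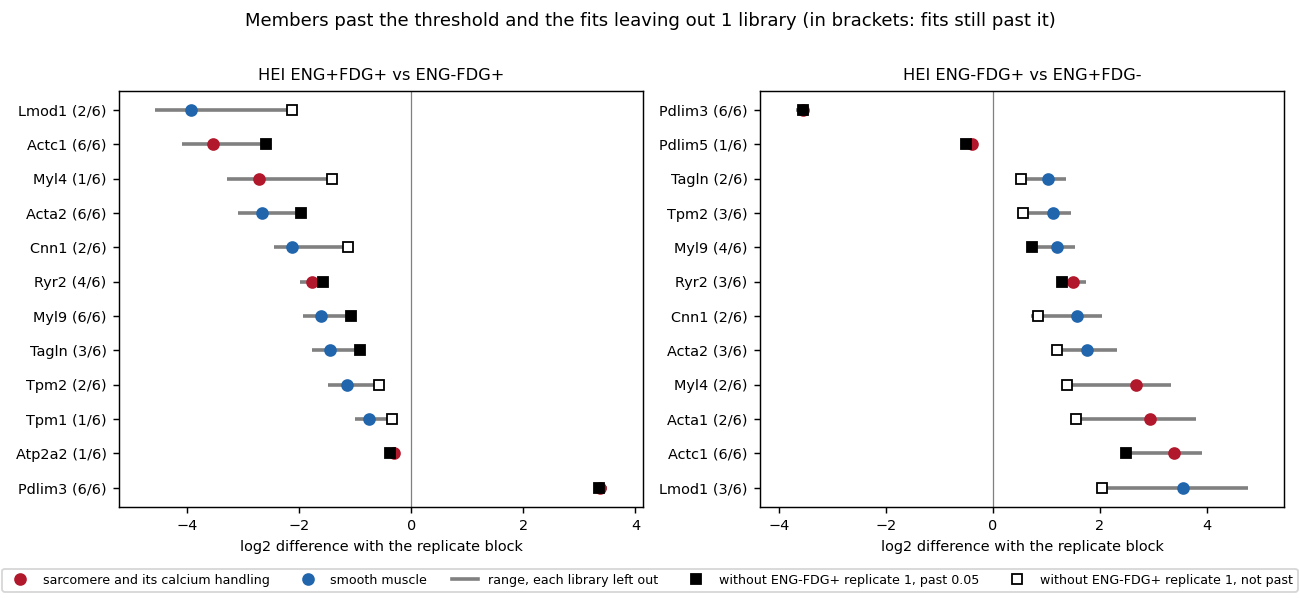
Members that passed with the replicate block in the 2 comparisons with ENG-FDG+ cells, except Myl7: coloured points are log2 differences from all libraries, grey lines the range when 1 of 6 libraries is left out, and squares the value without ENG-FDG+ replicate 1 (filled where it passed). The squares of Pdlim3 lie on its points (3.35 against 3.37, and -3.55 against -3.56), while those of Lmod1 lie at -2.12 against -3.93 and at 2.04 against 3.56.

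Markers of other cell types moved with these genes. The 10 mesenchyme and mural markers summed to 1152, 117 and 238 CPM in ENG-FDG+ libraries, to 68.6 to 93.4 CPM in ENG+FDG- and to 53.7 to 84.2 CPM in ENG+FDG+ libraries. The collagen gene Col1a1 had 580.5, 17 and 36.8 CPM in ENG-FDG+ cells and 3.38 to 20.03 CPM in the 6 ENG+ libraries. Postn, periostin, which was higher in all 3 ENG-FDG+ libraries (85.4, 15.1 and 56.3 against 2.88 to 6.06 CPM), passed without the block (log2 differences -3.76 ± 0.68 and 3.67 ± 0.67, edgeR adjusted p = 0.0436 and 0.0453). With the block 4 of 9 tested markers were lower in ENG+FDG+ than in ENG-FDG+ cells (Postn, Col1a1, Col1a2 and Pdgfrb). In ENG-FDG+ against ENG+FDG- cells 3 were higher (Postn, Col1a1 and Col1a2). These counts stand beside 12.5% and 12.9% of all genes. Of the 9 tested, Cspg4, Twist1 and Pdgfra had a fitted difference of the opposite sign in both comparisons, and none of these passed. Without the block 4 of the 9 were of the opposite sign in ENG-FDG+ against ENG+FDG-. With the block kept and ENG-FDG+ replicate 1 left out, Postn, Col1a1 and Col1a2 still passed in both comparisons. Pdgfrb then lost its call, and 18.8% and 18% of all genes passed. Pdgfrb had 105 CPM in that library, and its other ENG-FDG+ libraries lay within the ENG+ range of 1.89 to 8.52 CPM. The list median log2 differences were -0.78 and -0.08 without that library, against -1.98 and 1.08 with it. The mural marker Rgs5 had 2.38, 2.79 and 1.19 CPM in ENG-FDG+ and 0.243, 3.61 and 2.60 CPM in ENG+FDG- libraries. None of the 10 markers was at 0 over the ENG-FDG+ libraries. The blood markers summed to 108 to 174 CPM in ENG-FDG+ and 42.4 to 97.7 CPM in ENG+ HEI libraries, and the endothelial markers to 1303 to 1379 and 2231 to 4209 CPM. The part of these markers' cells in the members' differences was not tested.

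Of the 11 tested regulators, with the block, Gata4 and Hand2, factors of the early heart, and Mkl2 and Mef2a were higher in ENG+FDG+ than in ENG-FDG+ cells and Srf was lower. In ENG-FDG+ against ENG+FDG-, which shares those libraries, Srf was higher and Gata4, Hand2, Mkl2 and Mef2a were lower. Srf, whose product binds CArG boxes, had 135, 30.1 and 29.5 CPM in ENG-FDG+, 53.0, 22.4 and 21.6 in ENG+FDG- and 55.5, 17 and 21.3 in ENG+FDG+ libraries (log2 differences -0.89 ± 0.18 and 0.77 ± 0.17, edgeR adjusted p = 0.00817 and 0.0158). Gata4 had 35.2, 41.5 and 32.6 CPM in ENG-FDG+ libraries, all below the 90.5 to 207 CPM of the ENG+ libraries (1.68 ± 0.25 and -1.71 ± 0.25, 0.00166 and 0.00146, also edgeR). Of the 6 genes whose CArG box is printed above, Actc1 and Myl9 passed in both comparisons with the block, Myl7 and Acta1 in 1 each, and Cnn2 and Vcl in neither. The calls of Myl7 and Acta1 were lost without ENG-FDG+ replicate 1 (edgeR adjusted p = 0.916 and 0.271). Of all genes 12.5% and 12.9% passed in the 2 comparisons. Whether the element bears on these calls was not tested. Among the 19 partners 3 and 2 passed with the block, with log2 differences no larger in size than 0.55.

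**Figure D5:**
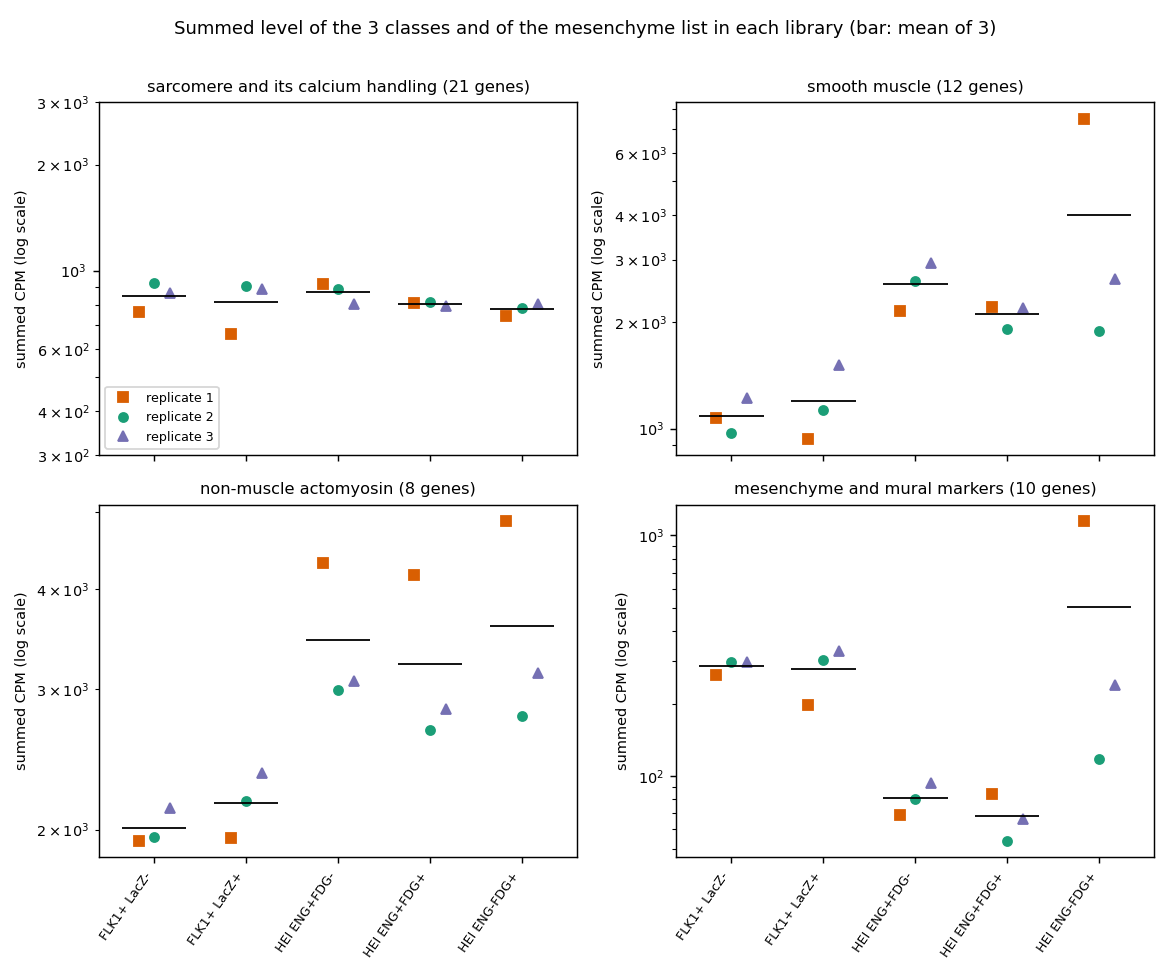
Summed CPM (log scale) of the 3 classes and of the mesenchyme and mural markers in each library, by sorted group, with symbols for replicates 1, 2 and 3 and bars for means. The sarcomere class stayed between 660 and 924 CPM in all libraries, while the smooth muscle class reached 7506 CPM and the mesenchyme list 1152 CPM in HEI ENG-FDG+ replicate 1.

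Class sums follow the most abundant genes. The sarcomere class summed to 660 to 924 CPM in FLK1+ and 744 to 915 CPM in HEI libraries, and most of it was Atp2a2, Pdlim5 and Pdlim3. The smooth muscle class summed to 936 to 1516 CPM in FLK1+ libraries, 1909 to 2933 CPM in ENG+ HEI libraries and 7506, 1892 and 2645 CPM in ENG-FDG+ libraries. The non-muscle class summed to 1935 to 2352 CPM in FLK1+ and 2665 to 4877 CPM in HEI libraries. In HEI cells replicate 1 had the highest non-muscle sum of each group.

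The last question is whether cells with an active reporter differed from cells without. No member passed in FLK1+ LacZ+ against LacZ- or in HEI ENG+FDG+ against ENG+FDG-, and 0% of all genes did (edgeR), with or without the block. At an unadjusted p under 0.05, edgeR without the block gave 170 genes and 1 member (Myh11) in FLK1+ cells and 39 genes and 0 members in HEI cells. With the block it gave 753 genes with 5 members, and 192 genes with 1 member. DESeq2 called 7 genes (0.0367%) and 0 genes (0%), none of them a member.

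Myh11 had 0.140, 0.185 and 0.0927 CPM in FLK1+ LacZ- and 0.703, 0.400 and 1.95 CPM in LacZ+ cells, a log2 difference of 2.77 ± 1.01 (edgeR adjusted p = 1). These groups did not overlap, at no more than 19 reads in any FLK1+ library. Over all tested members the median log2 difference was 0.09 in FLK1+ and -0.10 in HEI cells, against 0.04 and -0.01 over all genes. For Acta2 the log2 difference was 0.66 ± 0.96 in FLK1+ and -0.24 ± 0.94 in HEI cells, and with the block 0.61 ± 0.49 and -0.90 ± 0.41, so changes of about that size could have gone undetected. A p that misses the threshold does not show that the fractions were alike.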

How the data were processed

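RNA-seq was analysed from 15 libraries of sorted mouse ES cell derivatives, 5 groups of 3, made from amplified total RNA per the labels' protocols. The deposited table holds raw read counts per gene symbol, with no normalization by the authors. STAR 2.4.0, HTSeq 0.6.1 and the build mm10 are named in the submitters' processing notes. The annotation, the strand setting and the handling of shared reads were not given in the sources used here. Of 24061 lines 27 carried dates in place of symbols and were left out. Library totals were 9673396 to 16337785 counts, which sets the precision: levels below about 0.3 CPM rest on a few reads. All 15 libraries entered 1 edgeR 4.0.16 fit (R 4.3.3, limma 3.58.1, TMM scaling, robust quasi-likelihood test, 13662 genes kept by expression), with Benjamini-Hochberg adjustment over all genes and a threshold of 0.05. A prior count of 2 entered only the log2 levels of single libraries, used for differences and correlations between same-numbered libraries, and not the fit. The mean of the HEI groups was set against that of the FLK1+ groups, and fractions against each other within each line. The SE printed after ± was derived as the size of the log2 difference divided by the square root of the F statistic. Deviations of same-numbered libraries from their group means correlated at 0.432 to 0.867 in every pair of groups. Libraries of different numbers were not compared, and replicate 1 stood apart in every group. The correlations therefore cannot show that the replicate numbers pair the samples. A fit with the number as a block within each line is given where it changes a result. Alternatives were RLE scaling, no expression filter, the compared groups alone, replicates 2 and 3 alone, each library left out, and DESeq2 1.42.0. Members and lists were chosen with earlier results of these data known. Named with library values, or with their range over some groups, were, per class, up to 8 members past the threshold with the smallest adjusted p and the 2 highest per kb. From each other list up to 4 genes were named, but more from the muscle transcription regulators. Actc1, Tnnt2, Myh7, Myh6, Tnni3, Myh10, Myh11, Tpm2, Acta1, Cnn3, Pdgfrb and Rgs5 were added after their values were seen. Fits were tried on simulated counts drawn without any effect of the replicate number, so that trial cannot judge the block on these data.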

Additional observations from a re-analysis of the deposited data

Results flagged for a closer look

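For 3 members the reporter-positive library lay above the reporter-negative library of the same number in all 3 FLK1+ pairs and below it in all 3 HEI pairs (ENG+FDG+ minus ENG+FDG-). The same held for 569 of all 13662 genes tested (4.16%), against 3 of 38 members (7.89%), and the opposite pattern for 225 genes (1.65%) and 0 members. For Cald1 the log2 differences were 0.126, 0.102 and 0.46 in FLK1+ cells and -0.096, -0.424 and -0.445 in HEI cells. For Tagln2 they were 0.453, 0.34 and 0.247 against -0.079, -0.252 and -0.166. For Myh10 they were 0.205, 0.2 and 0.145 against -0.025, -0.063 and -0.074. None of the 3 genes passed in either comparison (edgeR), and the difference between FLK1+ and HEI cells was not tested.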

How the results depend on the processing

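Each alternative for a single gene was set against the fit without the block, for genes and comparisons called without or with it. Of these, 1067 kept direction and side of the threshold, 254 gained the call, 16 lost it and 3 reversed. Genes chosen by the block thus count as gains, 31 of them in the block fit itself. A call made only with the block and lost without 1 library counts as kept, so the 16 leave out such losses. The 3 reversals were Myl7 in ENG+FDG+ against ENG-FDG+ with replicates 2 and 3 alone (0.133), and Tagln (-0.087) and Myl9 (-0.19) in ENG-FDG+ against ENG+FDG- without ENG-FDG+ replicate 1, all 3 on the log2 scale. The cause was not tested. Over the libraries left out in turn Tagln ran from -0.087 to 2.07 and Myl9 from -0.19 to 2.484 in that comparison.

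The fit with the replicate block, which pairs same-numbered libraries, took the members called from 1 to 13 (ENG+FDG+ against ENG-FDG+) and from 1 to 12 (ENG-FDG+ against ENG+FDG-), and all genes called from 38 to 1705, from 48 to 1757 and, in HEI against FLK1+, from 5096 to 9156. With replicates 2 and 3 alone the members numbered 12, 13 and, in HEI against FLK1+, 28 instead of 17, and all genes 3899, 3605 and 9815, with 8 in FLK1+ LacZ+ against LacZ- and 75 in HEI ENG+FDG+ against ENG+FDG-. DESeq2 called 6 and 5 members and 405 and 424 genes in the 2 comparisons with ENG-FDG+, and 7 genes in the FLK1+ comparison. No expression filter gave 0 and 0 members (12 and 13 genes), the compared groups alone 0 and 0 members (0 and 0 genes), and RLE scaling 2 members in ENG-FDG+ against ENG+FDG-.

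Leaving out 1 library, members called ranged from 0 to 1 in ENG+FDG+ against ENG-FDG+ and in ENG-FDG+ against ENG+FDG- (4 to 14 and 2 to 13 with the block kept, fits chosen after seeing the data) and from 17 to 21 in HEI against FLK1+ (25 to 27 with the block kept). All genes called ranged from 0 to 34 (568 to 2632 with the block), 0 to 43 (751 to 2528) and 4656 to 5732 (8343 to 10228), from 0 to 1 in the FLK1+ comparison, and were 0 in HEI ENG+FDG+ against ENG+FDG-. With 3 libraries a group and replicate 1 apart, small differences in low genes could not be measured, and near-identical actins and antisense overlaps could not be resolved from symbol counts.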
